A study of Mus musculus with 24 samples.

Results

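The transcripts described here are those of 8 genes that build, break down or regulate glycogen in the liver: Gys2, Gbe1 and Ugp2 for synthesis, Pygl, Phka2 and Phkg2 for breakdown, and Ppp1r3b and Ppp1r3c for phosphatase targeting. They were chosen by gene symbol, with earlier results of these data known. Each was represented by 1 probe set (8 in all), and they are 8 of the 19935 genes tested. The livers came from adult male C57BL/6 mice with no other genetic change, entrained for 4 weeks to 12 h of light and 12 h of dim red light and then kept in constant dim red light. Food was always available, per the series text. Livers were taken on the second cycle in constant conditions at 8 circadian times (CT), CT00 to CT21 in steps of 3 h. Each time had 3 Affymetrix Mouse Gene 1.0 ST arrays, each from its own liver, 24 arrays in all. One label speaks of 4 mice per time and another of 3 replicates, and the series text speaks of 4 time points. The groups here follow the sample titles, which give 8 times of 3 arrays. By convention CT00 is the former time of lights on, CT00 to CT12 is the subjective day, when mice mostly rest, and the hours after CT12 are the subjective night, when they mostly eat and move.

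Liver glycogen is the store from which blood glucose is supplied between meals. UDP-glucose pyrophosphorylase (Ugp2) makes the activated glucose, glycogen synthase (Gys2) adds it to the chain and the branching enzyme (Gbe1) makes the branches. Glycogen phosphorylase (Pygl) releases glucose units after it has been phosphorylated by phosphorylase kinase, whose liver regulatory and catalytic subunits are encoded by Phka2 and Phkg2. Protein phosphatase 1 reverses such phosphorylation, which activates the synthase and inactivates the phosphorylase, and the targeting subunits encoded by Ppp1r3b and Ppp1r3c hold it on the glycogen particle. Only transcripts were measured here, not glycogen, protein or enzyme activity.

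All values below are log2 values relative to the median of the same gene over the 24 arrays, so they show change over time and not the level of a gene. Folds assume that the deposited logarithm has base 2. In whole liver RNA, fewer cells of a type and less RNA per cell cannot be told apart. A 24 h wave was fitted to the 24 arrays, and a gene is called rhythmic when limma's moderated F test gave a p under 0.05 after Benjamini-Hochberg adjustment over all 19935 genes. The amplitude is the distance of the peak from the mean of the fitted curve, and the fold is that from trough to peak. Sampling covered 1 cycle, so recurrence of a wave was not observed.

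Of the 8 genes, 7 were rhythmic, against 13.8% of all genes tested, and Gbe1 did not pass. Since the genes were chosen with earlier results of these data known, the counts and shares here are descriptions and not a test of enrichment. Of the 7, 3 had a fold of at least 2 (Gys2, Ppp1r3b and Ppp1r3c), against 0.497% of all genes. The median amplitude of the 8 was 0.23, compared with 0.05 over all genes. All genes were taken without a filter on brightness. Of the 8, 5 were in the upper brightness class described below, against 12.4% of all genes. How far brightness enters these comparisons was not tested. Ppp1r3c ranked 18, Ppp1r3b 63 and Gys2 77 of all genes by amplitude, while Gbe1 ranked 3748. The peaks did not fall together. The fitted peaks of Phka2, Phkg2 and Ugp2 lay in the subjective day and that of Gys2 just after its end. Those of Ppp1r3b, Pygl and Ppp1r3c lay later in the subjective night. Of the 7, 3 had a fitted peak in the day and 4 in the night, against 8.02% and 5.82% of all genes. The highest mean of Phkg2 was at CT15, in the subjective night and away from its fitted peak. A second test asked whether the means of the 8 times differed in any pattern, and it called 6 of the 8 genes (10.9% of all genes), all but Gbe1 and Pygl.

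**Figure D1:**
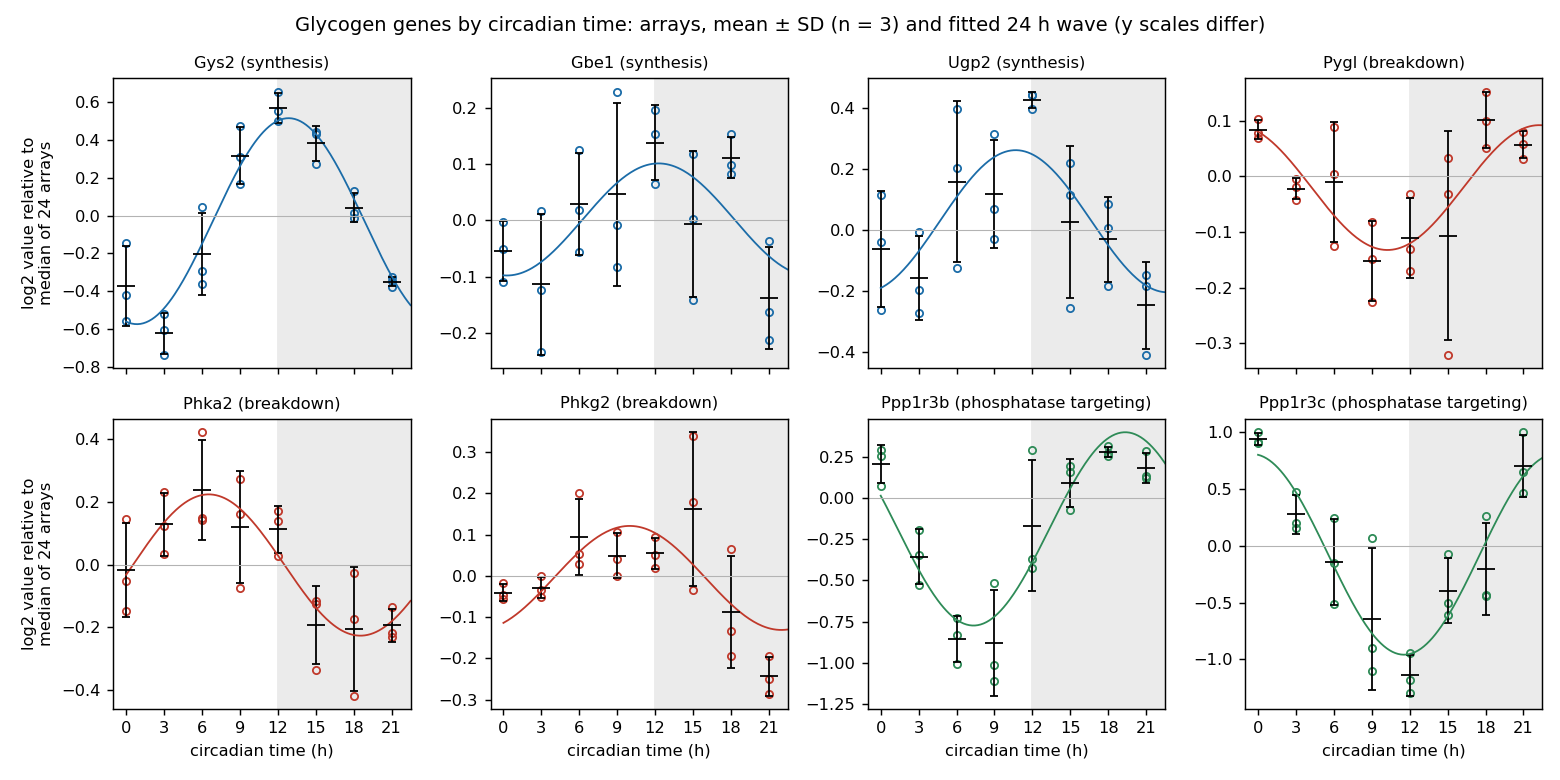
Log2 values of the 8 genes relative to the median of the 24 arrays (y axis) against circadian time in hours (x axis); circles are arrays, black marks and bars the mean and SD of 3 arrays, curves the fitted 24 h wave, grey the subjective night, and the y scales differ between panels. Gys2 is highest at CT12 and lowest at CT03, while Ppp1r3c is highest at CT00 and lowest at CT12.

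Among the synthesis genes, Gys2, which encodes the liver form of glycogen synthase, had the widest wave. Its arrays read -0.56, -0.42 and -0.14 at CT00, -0.74, -0.60 and -0.52 at CT03, and -0.29, -0.36 and 0.04 at CT06. They read 0.17, 0.31 and 0.47 at CT09, 0.50, 0.55 and 0.65 at CT12, and 0.27, 0.44 and 0.43 at CT15. They had fallen to -0.01, 0.01 and 0.13 at CT18 and to -0.37, -0.33 and -0.35 at CT21. Every array of CT12 therefore lay above every array of the other 7 times, and every array of CT09, CT12 and CT15 above all arrays of the remaining times. The fitted wave peaked at 12.9 h ± 0.297 (SE) with an amplitude of 0.54 ± 0.04 (SE) and a 2.12-fold swing (adjusted p = 5.42e-09), and it took up 87.6% of the variance over the 24 arrays. The steepest rise between neighbouring times was 0.52, from CT06 to CT09. The order of the group means from the top was CT12, CT15, CT09, CT18, CT06, CT21, CT00 and CT03, and the arrays of neighbours in that order overlapped except between CT12 and CT15 and between CT09 and CT18.

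Ugp2 had a smaller wave, with a peak earlier than that of Gys2. Its arrays read -0.26, -0.04 and 0.11 at CT00, -0.27, -0.20 and -0.01 at CT03, 0.20, -0.13 and 0.40 at CT06, and -0.03, 0.07 and 0.31 at CT09. They read 0.39, 0.44 and 0.44 at CT12, -0.26, 0.22 and 0.11 at CT15, -0.18, 0.01 and 0.08 at CT18, and -0.41, -0.15 and -0.18 at CT21. The 3 arrays of CT12 lay close together and above those of every other time except 1 array of CT06, whereas the arrays of the other times overlapped widely. The wave peaked at 10.7 h ± 0.855 (SE) with an amplitude of 0.23 ± 0.05 (SE) and a 1.38-fold swing (adjusted p = 0.00827). The call rested on 2 times: without CT12 the adjusted p was 0.159 and without CT21 it was 0.0638. In the test of the 8 times (adjusted p = 0.0292) the call was lost when any array of CT12 was left out (0.0754, 0.0867 and 0.0842), without CT03 replicate 1 or 2 (0.0521 and 0.0515) and without CT21 replicate 1 (0.053).

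Gbe1, the branching enzyme gene, ran from a mean of -0.14 ± 0.09 (SD, n = 3) at CT21 to 0.14 ± 0.07 (SD, n = 3) at CT12. All 3 arrays of CT12 were above those of CT21, but all neighbours in the order of the means overlapped, and at CT09 the arrays alone spread from -0.08 to 0.23. The fitted amplitude was 0.10 ± 0.03 (SE) with a peak at 12.3 h ± 1.19 (SE) and an adjusted p of 0.0828. The call was made without CT09 replicate 1 (adjusted p = 0.0495), without CT15 replicate 1 (0.0235) and without CT15 as a whole (0.0301). It was also made without the 4 farthest arrays (0.0402), with array weights (0.0249) and with genes of the upper brightness class alone (0.039). The latter changes the set of genes that the fit and the adjustment run over.

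Among the breakdown genes, Pygl itself varied little and in the opposite sense to Gys2. Its arrays read 0.07, 0.08 and 0.10 at CT00, -0.02, -0.04 and -0.0046 at CT03, 0.0046, -0.13 and 0.09 at CT06, and -0.23, -0.15 and -0.08 at CT09. They read -0.13, -0.03 and -0.17 at CT12, -0.32, 0.03 and -0.03 at CT15, 0.05, 0.10 and 0.15 at CT18, and 0.03, 0.08 and 0.06 at CT21. All arrays of CT18, CT21 and CT00 were above 0, and all arrays of CT09 and CT12 below it, with 1 array of CT15 lowest of all. The wave had an amplitude of 0.11 ± 0.03 (SE), a 1.17-fold swing and a peak at 22.2 h ± 0.876 (SE, adjusted p = 0.0101), and the call was lost without CT09 (0.065). The test of the 8 times did not call it (adjusted p = 0.0802), but did without CT15 replicate 1 (0.0188) or CT15 replicate 2 (0.0323).

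Phka2, the gene of the liver regulatory subunit of phosphorylase kinase, peaked in the middle of the subjective day. Its arrays read -0.15, -0.05 and 0.15 at CT00, 0.12, 0.03 and 0.23 at CT03, 0.15, 0.14 and 0.42 at CT06, and 0.16, -0.08 and 0.27 at CT09. They read 0.14, 0.03 and 0.17 at CT12, -0.34, -0.13 and -0.12 at CT15, -0.17, -0.42 and -0.03 at CT18, and -0.13, -0.23 and -0.22 at CT21. All 9 arrays of CT15, CT18 and CT21 were below 0, while of the 12 arrays from CT03 to CT12 only 1, at CT09, was. The wave peaked at 6.53 h ± 0.605 (SE) with an amplitude of 0.23 ± 0.04 (SE) and a 1.37-fold swing (adjusted p = 0.000222). Its steepest step was the fall of 0.31 from CT12 to CT15. Neighbours in the order of the means overlapped throughout.

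The catalytic subunit gene Phkg2 had a smaller wave with a peak at 9.99 h ± 0.973 (SE), an amplitude of 0.13 ± 0.03 (SE) and a 1.19-fold swing (adjusted p = 0.0233). Its means ran from -0.24 ± 0.05 (SD, n = 3) at CT21 to 0.16 ± 0.19 (SD, n = 3) at CT15, where the arrays read -0.03, 0.18 and 0.34. At CT21 they read -0.19, -0.25 and -0.29, below every array of the other times except 1 of CT18. The call rested on CT21. It was lost without replicate 1, 2 or 3 of that time (adjusted p = 0.0501, 0.0579 and 0.0585), without CT21 as a whole (0.305) and without CT06 (0.0618). In the test of the 8 times (adjusted p = 0.0168) it was lost without CT21 replicate 2 (0.056) or CT21 replicate 3 (0.0654).

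Both targeting subunit genes had wide waves that peaked in the subjective night, 4.21 h ± 0.583 (SE) apart. For Ppp1r3b, which encodes the liver targeting subunit also called GL, the arrays read 0.29, 0.26 and 0.07 at CT00, -0.35, -0.19 and -0.53 at CT03, and -0.83, -0.73 and -1.01 at CT06. They read -1.01, -1.11 and -0.51 at CT09, -0.37, 0.29 and -0.42 at CT12, and -0.07, 0.19 and 0.16 at CT15. At CT18 they read 0.28, 0.32 and 0.26, and at CT21 0.12, 0.14 and 0.29. The transcript was thus lowest at CT06 and CT09, and every array of CT06 lay below every array of CT03. Every array of CT18 lay above every array of CT15. In the order of the means, which ran CT18, CT00, CT21 and CT15 from the top, the arrays of neighbours overlapped. At CT12 replicate 2, at 0.29, lay far above the other two. The wave peaked at 19.3 h ± 0.418 (SE) with an amplitude of 0.59 ± 0.06 (SE) and a 2.26-fold swing (adjusted p = 1.44e-06). The steepest rise of the means was 0.71, from CT09 to CT12, and the steepest fall 0.56, from CT00 to CT03.

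Ppp1r3c, which encodes the subunit also called PTG, had the widest wave of the 8 genes. Its arrays read 1.00, 0.91 and 0.92 at CT00, 0.20, 0.48 and 0.16 at CT03, 0.25, -0.51 and -0.15 at CT06, and -0.90, -1.10 and 0.07 at CT09. They read -1.30, -0.95 and -1.18 at CT12, -0.61, -0.07 and -0.50 at CT15, -0.43, 0.27 and -0.44 at CT18, and 0.65, 1.00 and 0.46 at CT21. All arrays of CT00 were above all arrays of CT03 to CT18, and overlapped only with CT21. The wave peaked at 23.6 h ± 0.398 (SE), with an amplitude of 0.88 ± 0.09 (SE) and a 3.41-fold swing (adjusted p = 6.77e-07). The means of CT00 and CT12 were 0.94 ± 0.05 and -1.14 ± 0.18 (SD, n = 3 each), a 4.24-fold difference. At CT09 the arrays differed widely (SD 0.63), since replicate 3 read 0.07. The same array was the highest of its time for Ppp1r3b, and over all genes it was among the 4 arrays farthest from the others of their time. Without it the Ppp1r3c swing was 3.72-fold and that of Ppp1r3b 2.32-fold.

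The promoter of Ppp1r3c is shown because it was the only window of the genes described here that held one of the clock-related motifs searched for. RefSeq promoter windows (build GRCm38.p6) matched 6 of the 8 genes, with 2 windows for Ugp2; Gys2 and Ppp1r3b were not among them. In the 250 bases before each start, both strands were searched for CACGTG (the E-box bound by CLOCK and BMAL1), CACGTT (a variant E-box), TTATGTAA and TTACGTAA (D-boxes), the response element of REV-ERB and ROR receptors and TGACGTCA (the cyclic AMP response element). The window of Ppp1r3c, at chr19:36736605-36736854 on the minus strand, held CACGTG at 104 to 99 bases before the start and CACGTT at 189 to 184 bases before it, both in capitals here.
Ppp1r3c: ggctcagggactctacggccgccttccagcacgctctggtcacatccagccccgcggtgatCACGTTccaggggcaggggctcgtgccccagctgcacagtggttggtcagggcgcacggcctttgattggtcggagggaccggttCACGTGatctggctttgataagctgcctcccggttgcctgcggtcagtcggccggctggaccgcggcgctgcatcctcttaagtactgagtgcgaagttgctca
Of all 32851 windows of this length, 6.02% held CACGTG and 3.85% held CACGTT. The shares were 0.819% for TTATGTAA, 0.113% for TTACGTAA, 0.177% for the receptor element and 1.55% for TGACGTCA. A match describes the letters of the window and does not show binding, and neither motif overlaps another of those searched.

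**Figure D2:**
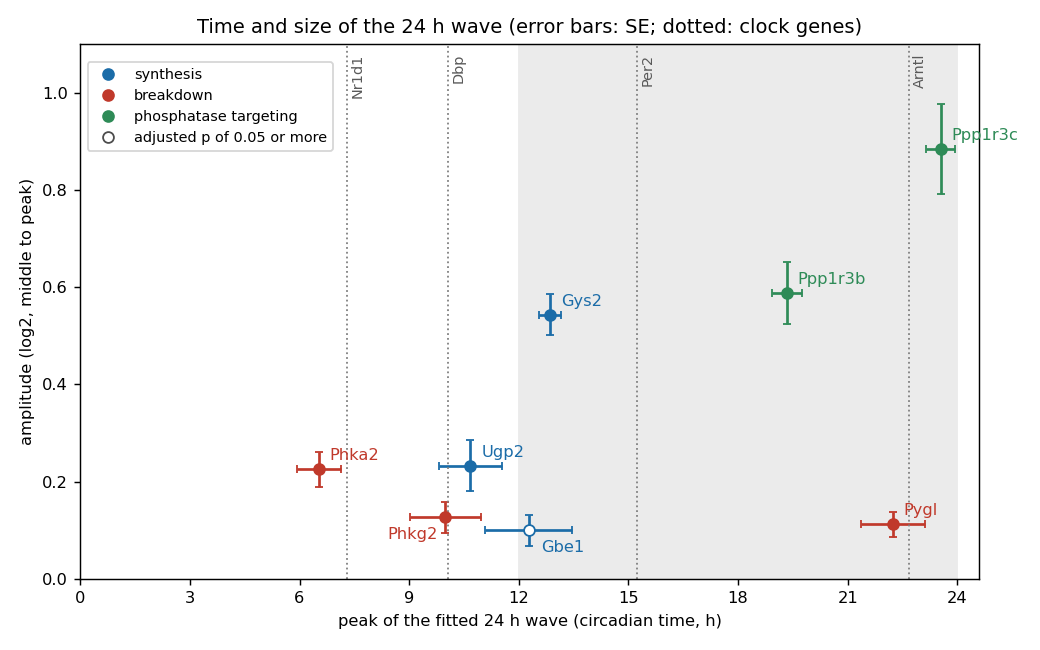
Peak of the fitted 24 h wave in hours (x axis) against its amplitude on the log2 scale (y axis) for the 8 genes, with SE bars, filled where the adjusted p was under 0.05; grey is the subjective night, and dotted lines mark the peaks of 4 clock genes. Gys2 peaks at 12.9 h between Dbp and Per2, and Ppp1r3c at 23.6 h after Arntl.

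Against the clock genes of the same arrays, Phka2 peaked before Nr1d1 (7.29 h ± 0.286, SE), which encodes REV-ERB alpha. Phkg2 and Ugp2 peaked on either side of Dbp (10.1 h ± 0.315), and Gys2 peaked between Dbp and Per2 (15.2 h ± 0.252). Pygl peaked before Arntl (22.7 h ± 0.277), which encodes BMAL1, and Ppp1r3c after it. These are the places of fitted peaks, and the highest mean of Phkg2 was at CT15. The places in the order are descriptions and were not tested. The fitted peaks of Phkg2, Ugp2 and Pygl lie within 1 SE of that of the clock gene named.

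Values 12 h apart were compared in 4 contrasts that use separate arrays and share 1 estimate of the spread. From CT00 to CT12, Gys2 was higher by 0.94 ± 0.10 (SE, adjusted p = 6.12e-06) and Ppp1r3c lower, with a difference of -2.08 ± 0.25 (adjusted p = 1.76e-05). Ugp2 was higher by 0.49 ± 0.13 (adjusted p = 0.0481). With these, 3 of the 8 genes were called, against 3.46% of all genes, 2 of them higher (1.79%) and 1 lower (1.67%). From CT03 to CT15 only Gys2 was called, higher by 1.00 ± 0.10 (adjusted p = 3.94e-06; 1 of 8 against 4.48%), with 1 of 8 higher (2.68% of all genes) and 0 of 8 lower (1.8%). From CT06 to CT18 Ppp1r3b rose by 1.14 ± 0.16 (adjusted p = 0.000182) and Phka2 fell by 0.44 on the log2 scale ± 0.11 (adjusted p = 0.0172), which is 2 of 8 against 4.64%, with 1 higher (1.43%) and 1 lower (3.21%). From CT09 to CT21 both targeting genes rose, Ppp1r3b by 1.06 ± 0.16 (adjusted p = 0.000266) and Ppp1r3c by 1.35 ± 0.25 (adjusted p = 0.00257). Over the same interval Gys2 fell by 0.67 ± 0.10 (adjusted p = 0.000534) and Phkg2 by 0.29 ± 0.08 (adjusted p = 0.0312), so that 4 of 8 were called, against 3.56%, 2 higher (1.56%) and 2 lower (2.00%). Pygl and Gbe1 were called in none of the 4 contrasts, but with array weights Pygl was called from CT00 to CT12 (adjusted p = 0.044, limma) and from CT09 to CT21 (0.0187).

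Several of these calls depended on single arrays or on a processing choice. The Ugp2 call was lost without CT00 replicates 1 or 2 (adjusted p = 0.299 and 0.128), CT03 replicates 1 or 2 (0.0551 and 0.0613), CT06 replicate 1 (0.0604), CT09 replicates 1 or 2 (0.0504 and 0.058) and CT12 replicates 1, 2 or 3 (0.116, 0.13 and 0.15). It was also lost without CT15 replicate 3 (0.0559), CT18 replicates 2 or 3 (0.0579 and 0.0521) and CT21 replicates 2 or 3 (0.0567 and 0.0573). It did not hold with array median centring (0.0504), with each probe set tested apart (0.0501), with quantile normalization (0.0789) or without moderation (0.107). The Phka2 call was lost without CT06 replicate 3 (0.118) or CT18 replicate 2 (0.123). That of Phkg2 was lost without CT09 replicates 1, 2 or 3 (0.0791, 0.119 and 0.0522) and CT21 replicates 2 or 3 (0.101 and 0.125), and without moderation (0.0501). Leaving out an array also added calls. Without CT12 replicate 2, Ppp1r3b was called from CT00 to CT12 (0.0149) and from CT03 to CT15 (0.0389). Without CT15 replicate 1, Phkg2 was called from CT03 to CT15 (0.0201) and Pygl from CT09 to CT21 (0.0344), and without CT09 replicate 2 so was Phka2 from CT09 to CT21 (0.0499). The calls of Gys2, Ppp1r3b and Ppp1r3c were kept whichever array was left out.

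**Figure D3:**
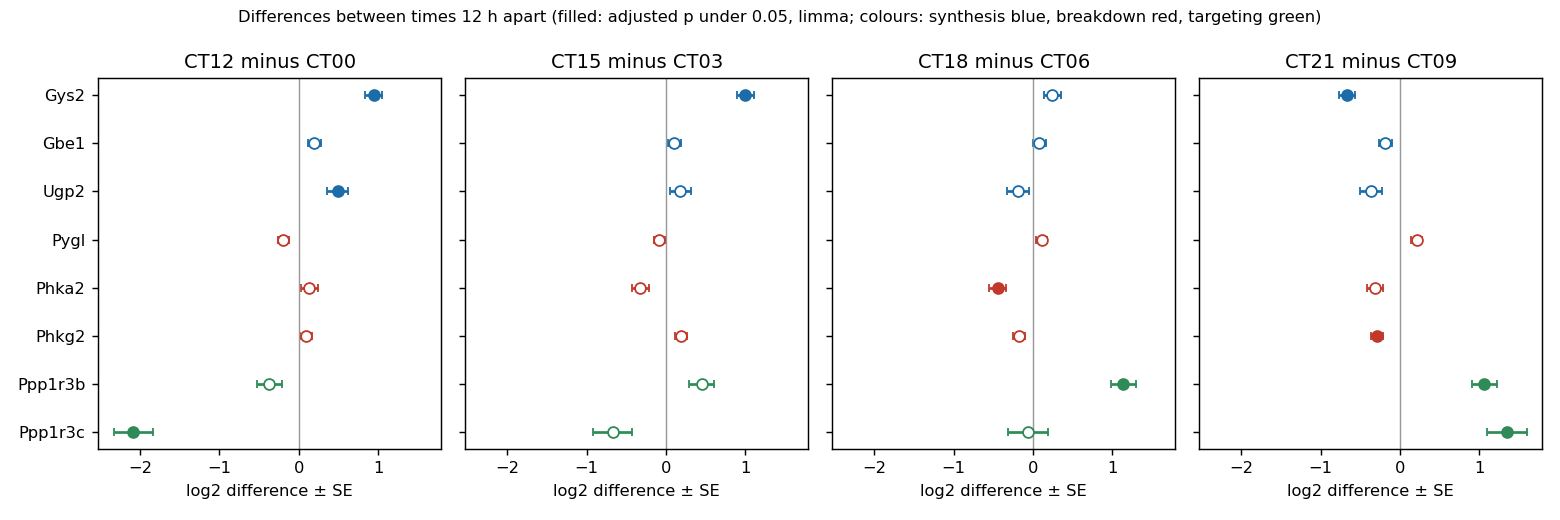
Differences between times 12 h apart in the 4 contrasts (x axis, log2 with SE bars) for the 8 genes (y axis); filled points had an adjusted p under 0.05 in limma, blue is synthesis, red breakdown and green targeting. Gys2 is higher at CT12 than at CT00 by 0.94, while Ppp1r3c differs by -2.08.

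A component of 12 h was called in 0 of the 8 genes by limma, against 0.577% of all genes. At an unadjusted p under 0.05 it was found in 3 of the 8 (Gys2, Phkg2 and Ppp1r3b), against 16.7% of all genes. With array weights Ppp1r3b was called (adjusted p = 0.0401).

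Whether the waves of any 2 of these genes differed was tested on the difference of their values on the same array, by permuting the sampling times 100000 times and adjusting over all 28 pairs. The waves differed in amplitude or time for 26 of the 28 pairs, with adjusted p up to 0.024. A pair can pass because 1 of its genes has a wide wave, so the count does not show that peak times differ. The difference of Gbe1 and Ppp1r3c, for example, had an amplitude of 0.98, and Ppp1r3c alone 0.88. No share over other pairs of genes was computed. The pairs that did not pass were Gbe1 with Phkg2 (adjusted p = 0.222 by the permutation test) and Ugp2 with Phkg2 (adjusted p = 0.175), which does not show that these waves are alike. The pair of Gbe1 and Ugp2, with an adjusted p of 0.024, did not pass without CT21 replicate 1 (0.0646, permutation test).

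Gys2 relative to Pygl, the synthase against the phosphorylase, was low around CT03 and high around CT12. The difference was -0.60 ± 0.10 (SD, n = 3) at CT03 and -0.19 ± 0.13 at CT06. It rose to 0.47 ± 0.08 at CT09, 0.68 ± 0.13 at CT12 and 0.49 ± 0.10 at CT15, and was -0.06 ± 0.03 at CT18, -0.41 ± 0.0017 at CT21 and -0.46 ± 0.19 at CT00. All 9 arrays from CT09 to CT15 were above 0 and the 15 others below it. The wave of this difference had an amplitude of 0.63 and a peak at 12.4 h (adjusted p = 1.33e-05, permutation test; the smallest that 100000 permutations can give before adjustment is 1e-05). The fitted peaks of Gys2 and Pygl were 9.38 h ± 1.01 (SE) apart.

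Gys2 and Ppp1r3c, whose product serves to activate the synthase, peaked 10.7 h ± 0.596 (SE) apart. Their difference on the same array ran from -1.31 ± 0.25 (SD, n = 3) at CT00 to 1.71 ± 0.19 at CT12 (adjusted p = 1.33e-05, permutation test). Pygl peaked 1.31 h ± 0.888 (SE) from Ppp1r3c, but with an amplitude of 0.11 against 0.88, and their waves differed (adjusted p = 3.65e-05, permutation test). Pygl and Phka2, the phosphorylase and a subunit of the kinase that activates it, peaked 8.29 h ± 1.20 (SE) apart. Phka2 minus Pygl was highest at CT09 (0.27 ± 0.17) and lowest at CT18 (-0.31 ± 0.18, SD, n = 3 each; adjusted p = 1.33e-05, permutation test). Between the subunits of that kinase the waves of Phka2 and Phkg2 differed as well (adjusted p = 0.00106, permutation test), with fitted peaks 3.46 h ± 1.07 (SE) apart.

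The difference between the targeting genes, Ppp1r3b minus Ppp1r3c, was between -0.73 and -0.63 in the means of CT00, CT03 and CT06, -0.23 ± 0.31 (SD, n = 3) at CT09 and 0.97 ± 0.24 at CT12. It then stayed at 0.49 ± 0.21 at CT15 and 0.49 ± 0.38 at CT18 and was back at -0.52 ± 0.35 at CT21. All 12 arrays from CT00 to CT09 were below 0 and all 9 from CT12 to CT18 above it (adjusted p = 1.33e-05, permutation test).

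**Figure D4:**
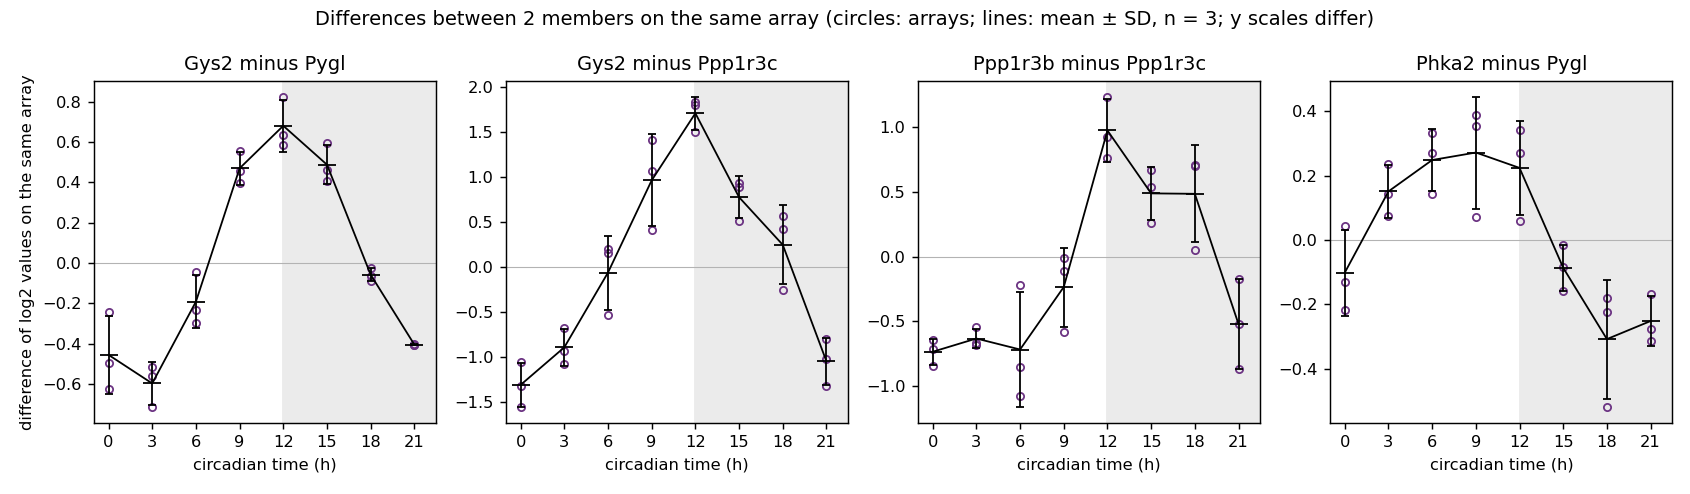
Difference of the log2 values of a pair of genes on the same array (y axis) against circadian time in hours (x axis); circles are arrays, lines the mean and SD of 3 arrays, grey the subjective night, and the y scales differ. Gys2 minus Pygl lies between -0.60 and 0.68 in its means, and Ppp1r3b minus Ppp1r3c turns from -0.23 at CT09 to 0.97 at CT12.

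Genes that differed in phase could still deviate together from the mean of their time. Over the 24 arrays, deviations from the time means had a Pearson r of 0.85 between Gys2 and Ugp2 and 0.82 between Ugp2 and Pygl. For the values themselves, which include the change over time, r was 0.72 and -0.07 for the same pairs. The deviations of these pairs had the 2 highest r of the 28 pairs. The lowest r of deviations was -0.19, between Phkg2 and Ppp1r3c. For the 2 targeting genes r was 0.53, and CT09 replicate 3, far above the other arrays of its time for both, added to it. It read -0.51 for Ppp1r3b (others -1.01 and -1.11) and 0.07 for Ppp1r3c (others -0.90 and -1.10). The r without that array was not computed. These correlations are descriptions over 24 arrays that share array-wide variation. The absolute r of the deviations of Ugp2 with all other genes had a median of 0.25, and 18.9% of them reached 0.5.

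The other genes of the pathway were looked at in 4 lists, also chosen with earlier results of these data known. Of 17 other glycogen enzymes and regulators tested, 5 were rhythmic, against 13.8% of all genes, and 4 of them had a day peak, against 8.02%. The test of the 8 times called 2 of them (10.9% of all genes), Stbd1 and Pgm2l1. The median amplitude of the list was 0.08, compared with 0.05 over all genes. Stbd1, a protein that binds glycogen and takes part in its delivery to lysosomes, had a 1.53-fold swing with a peak at 9.99 h (adjusted p = 2.29e-05). Pgm2l1, a glucose bisphosphate synthase related to phosphoglucomutase, had a 1.42-fold swing with a peak at 14.1 h (adjusted p = 0.000615). The others were smaller: Pgm1, a phosphoglucomutase gene (1.12-fold, 9.27 h, adjusted p = 0.0273), Gsk3a, a kinase that phosphorylates glycogen synthase (1.15-fold, 7.70 h, 0.0320), and Gaa, the lysosomal glucosidase that digests glycogen (1.17-fold, 5.35 h, 0.0401). The count of 5 was 3 without CT06 replicate 2 or CT12 replicate 3, and 2 without CT21 replicate 2 or 3. It was 2 without CT06 or CT21 as a whole and 3 without CT12 or CT18. The calls of Stbd1 and Pgm2l1 held in all 42 alternatives, while those of Pgm1, Gsk3a and Gaa were lost in 8 of 43, 11 of 42 and 20 of 42, with adjusted p up to 0.286, 0.119 and 0.198.

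Of 10 other subunits and inhibitors of protein phosphatase 1, 3 were rhythmic, all with a day peak, against 13.8% and 8.02% of all genes. The median amplitude of 0.04 was no higher than that of all genes (0.05). The test of the 8 times called 2 (10.9% of all genes), Ppp1ca and Ppp1r1a, an inhibitor of the phosphatase, the latter with an adjusted p of 0.0451 that missed the threshold in 20 of 31 alternatives. Rhythmic in the 24 h fit were Ppp1ca, a catalytic subunit (1.23-fold, 3.49 h, adjusted p = 0.000570), and Ppp1r2, the inhibitor subunit 2 (1.22-fold, 9.56 h, 0.0022). So was Ppp1cc, another catalytic subunit (1.18-fold, 10.9 h, 0.0418). The Ppp1cc call was lost in 19 of 43 alternatives, with adjusted p up to 0.398 without CT12. Among the other glycogen targeting subunits, Ppp1r3a, Ppp1r3d, Ppp1r3e, Ppp1r3f and Ppp1r3g, none was called (0 of 5 by limma).

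Of 16 genes for hormone signals that reach the glycogen enzymes, 7 were rhythmic, 5 with a day peak, against 13.8% and 8.02% of all genes, and the median amplitude was 0.09. The test of the 8 times called 3 (10.9% of all genes), Adra1b, Prkacb and Pde4b. Adra1b, the alpha 1B adrenergic receptor gene, had a 1.43-fold swing with a peak at 23.3 h (adjusted p = 0.000111), and its means ran from -0.42 at CT09 to 0.18 at CT21. Pde4b, a phosphodiesterase that breaks down cyclic AMP, peaked at 3.91 h (1.34-fold, adjusted p = 0.00535), Insr, the insulin receptor gene, at 8.03 h (1.22-fold, 0.00855), and Prkacb, a catalytic subunit of protein kinase A, at 10.4 h (1.21-fold, 0.00181). Calm2, one of the calmodulin genes, peaked at 4.20 h (1.13-fold, 0.0236) and Prkar1a, a regulatory subunit of protein kinase A, at 4.92 h (1.14-fold, 0.0334). Prkar2a, another such subunit, peaked at 20.7 h (1.18-fold, adjusted p = 0.0451), and its call was lost in 27 of 43 alternatives, with adjusted p up to 0.322. The count of 7 was 4 without CT06 and 3 without CT18, and 4 without the 4 farthest arrays. Without CT18 the Insr call was lost (adjusted p = 0.0527). Calm2 lost its call in 7 of 43 alternatives and Prkar1a in 15 of 43, with adjusted p up to 0.169 and 0.217.

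Of 9 genes for glucose entry, exit and phosphorylation, 2 were rhythmic, against 13.8% of all genes, with a median amplitude of 0.07. Slc2a2, the liver glucose transporter gene, peaked at 10.9 h (1.55-fold, adjusted p = 8.84e-07), and Slc37a4, which carries glucose 6-phosphate into the endoplasmic reticulum, at 14.2 h (1.89-fold, adjusted p = 5.80e-08). The test of the 8 times called 4 of the 9 (10.9% of all genes), these and G6pc, the glucose 6-phosphatase gene (adjusted p = 0.0470), and Gckr, the gene of the glucokinase regulator (0.0468). The latter pair missed the threshold in 19 of 32 alternatives each, with adjusted p up to 0.123 and 0.142. The Gys2 peak lay between those of Slc2a2 and Slc37a4.

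**Figure D5:**
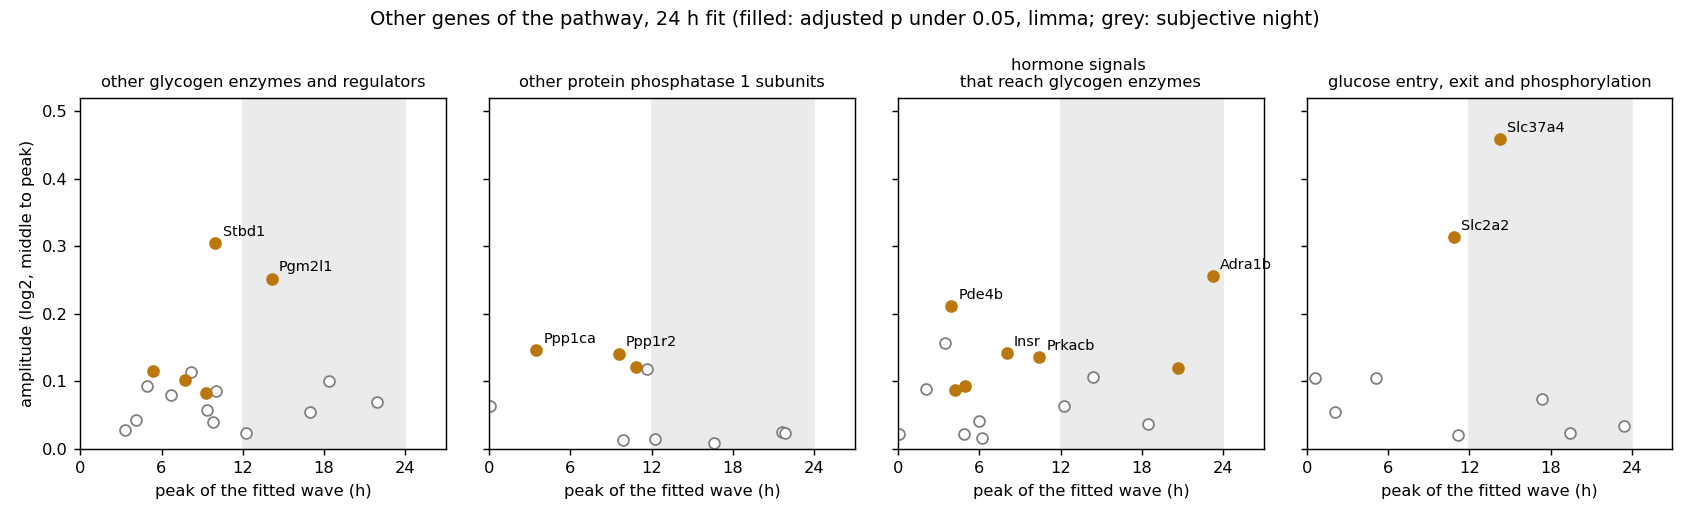
Peak of the fitted 24 h wave in hours (x axis) against its amplitude on the log2 scale (y axis) for the genes of the 4 lists; filled points had an adjusted p under 0.05 in limma and grey is the subjective night. The largest amplitude in the 4 lists is that of Slc37a4, with a peak at 14.2 h, and Adra1b at 23.3 h is among the few called genes with a night peak.

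The genes whose values were most like those of each of the 8 over the 24 arrays are given as descriptions. For Gys2 they were Wee1, a cell cycle kinase gene (r = 0.98, 3.53-fold swing), and Slc16a12 (r = 0.96). For Ppp1r3b they were Nat8f5 and Lonrf3 (r = 0.91 each), and for Ppp1r3c Avpr1a, a vasopressin receptor gene, and Pnp (r = 0.89 and 0.88), both with a peak at 23.5 h. For Ugp2 they were Ppp1cc, the phosphatase subunit above, and Fam91a1 (r = 0.92 each), and for Phka2 Mpdz and Marchf7 (r = 0.93 and 0.92). For Pygl they were AI182371 and Acp2 (r = 0.87 and 0.84), for Phkg2 Tbc1d31 and Mtmr10 (r = 0.86 and 0.80), and for Gbe1 Fastkd1 and Fam20b (r = 0.79 and 0.77). All such pairs share the arrays and their array-wide variation.

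The tissue was checked against markers. Rounding steps in the values place a probe set above or below a log2 level of about 8. All 7 hepatocyte markers tested were in the upper class, as were 5 of the 8 glycogen genes (all but Phka2, Phkg2 and Ppp1r3b), compared with 12.4% of all genes. None of 8 muscle, 5 adipocyte, 7 Kupffer cell, 4 bile duct, 5 lymphocyte and 3 exocrine pancreas markers was, while 1 of 2 red blood cell, 2 of 7 endothelial and 1 of 7 stellate cell markers were. In the 24 h fit the called markers were Hnf4a (1 of 7 hepatocyte markers), Pdgfrb (1 of 7 stellate) and Sox9 (1 of 4 bile duct). In each of the other 7 lists 0 were called, and the share of all genes was 13.8%. The test of the 8 times called 1 marker each in the hepatocyte, endothelial, stellate and bile duct lists, against 10.9% of all genes. The mean of the muscle list, whose tissue also stores glycogen, stayed between -0.05 and 0.06 in the time means. That of the endothelial list ran from -0.16 to 0.11 and that of the bile duct list from -0.15 to 0.14. Between single arrays the Kupffer cell list spread most, with array means from -0.57 to 0.30. The part of these lists in the results was not tested.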

How the data were processed

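Per the labels, total RNA of each liver was hybridized to its own Affymetrix Mouse Gene 1.0 ST array. The authors deposited log2 values (the base is not stated) of 28815 probe sets, centred on the median of each probe set (row medians 0 to within 5e-07), so levels are lost. How background was corrected and arrays were summarized and normalized: not given in the sources used here. Probe sets with 1 symbol in the platform annotation (21780) were averaged to 19935 genes, with no filter. Depth does not apply to arrays, and 3 arrays per time limit the precision.

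Waves, times, 12 h components and 4 contrasts were fitted with limma 3.58.1 (R 4.3.3) on all genes. Tests were checked on simulated data. The 24 h test found 34% of simulated waves with an amplitude of 0.1, the size fitted to Gbe1. It found 94% at 0.2 and 100% at 0.4. Differences between genes used permutations (Python 3.11.15). Genes were named as members, as called genes of the 4 lists (at most 6 each), as 2 most alike genes per member, and as 4 clock genes. Marker genes, the 5 targeting subunits that were not called, Prkar2a, Ppp1r1a, G6pc and Gckr were named after their values were seen. Members and lists were chosen with earlier results of these data known. Alternatives covered arrays, times, weights, moderation, normalization, probe sets, brightness and period. No label says that a replicate number is shared between times, so the replicate number is a block in an alternative only. Of 84 same-numbered pairs of arrays at different times, 45 had deviations correlated above 0.1, which does not settle whether the numbers pair the livers.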

Additional observations from a re-analysis of the deposited data

How the results depend on the processing

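Of the 8 genes, 7 were rhythmic in the 24 h fit and 6 to 8 were when 1 array was left out. With 1 time left out it was 5 without CT21, 6 without CT06, CT09 or CT12, and 8 without CT15. The fitted peaks of Gys2, Ppp1r3b, Ppp1r3c and Phka2 moved by less than 1 h in the alternatives with a period of 24 h. So did those of Ugp2 and Pygl. The shift ran from -1.66 to 0.56 h for Phkg2 and from -1.53 to 1.03 h for Gbe1. Peaks in the fits with periods of 22 h and 26 h were not compared. The calls of Gys2, Ppp1r3b, Ppp1r3c and Phka2 were kept under all 42 or 43 alternatives run for them, those with other periods included. The alternative with the upper brightness class alone was not run for counts of members, since 3 members are not in it. The count of other glycogen enzymes and regulators ranged from 2 to 6 when 1 array was left out, and was 2 without CT06 or CT21 and 3 without CT12 or CT18. For hormone signal genes it was 4 without CT06, 3 without CT18 and 4 without the 4 farthest arrays. In the contrast of CT15 with CT03 the count of members ranged from 1 to 2 when 1 array was left out, was 3 with array weights and was 2 with the replicate block. With array weights the contrasts of CT12 with CT00 and of CT21 with CT09 called 4 and 6 members, and the 24 h fit and the test of the 8 times called 8 each. In that of CT18 with CT06 it ranged from 1 to 2 when 1 array was left out. With array weights 1 member had a 12 h component. Arrays of the same number at different times had deviations with a median correlation of 0.11 (45 of 84 pairs over 0.1). For different numbers it was -0.06 (45 of 168). The deviations of a time sum to 0, so a positive value for the same number brings a negative one for different numbers. The latter is therefore not separate evidence. The array numbered 3 was above that numbered 1 at 8 of 8 times for Gys2 and Ugp2 and at 3 of 8 for Ppp1r3b and Ppp1r3c. No label says that the numbers pair the livers, so these values are a hint from the data and not from the design. With the replicate block 7 members were rhythmic, 26 pairs differed, and the contrast of CT21 with CT09 called 6 members in place of 4. The block added Gys2 and lost no member in the contrast of CT18 with CT06 (3 called). Among single genes, array weights brought Gbe1 past the threshold in the 24 h fit (adjusted p = 0.0249, limma) and Pygl in the test of the 8 times (0.0172). Without limma's moderation Ugp2 and Phka2 lost their calls in that test (0.0866 and 0.0506), and with quantile normalization so did Ugp2 (0.0558). The cause of these changes was not tested. The number of arrays, 3 per time, limits how small a wave can be found.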
